A study of Mus musculus with 8 samples.

Results

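The 33 genes described here encode MYC and its partner MAX, factors that make ribosomes in the nucleolus, and growth genes that MYC is known to drive. They were selected by gene symbol from a fixed list, which was chosen with earlier results of these data known. All 33 were found among the 23131 genes of the deposited table. All 33 also passed the filter on low values, a mean of at least 10 normalised counts over the 8 libraries, as did 16688 genes in all. Expression was measured by RNA sequencing in granulocyte-macrophage progenitors (GMP), the marrow precursors of neutrophils and monocytes, sorted as LE-K CD16/32hi CD34+ cells. The knockout group held 4 C57BL/6 mice of the genotype Rnaseh2b fl/fl VavCre+. The control group held 4 littermates of the same strain that were Rnaseh2b fl/fl VavCre-, so all mice carried the floxed alleles and the controls carried no Cre. Vav-Cre acts in blood-forming cells, and Rnaseh2b codes for the B subunit of RNase H2, which takes ribonucleotides out of DNA. The sources used here state no ages. Libraries are called control 1 to 4 and knockout 5 to 8, after the replicate numbers in the labels.

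Ribosomes are built in the nucleolus, where RNA polymerase I (Pol I) transcribes the precursor of the ribosomal RNAs. Small nucleolar ribonucleoproteins (snoRNPs) modify that precursor, the small subunit processome folds and cuts it into the 40S part, and a separate set of assembly factors builds the 60S part. MYC, a transcription factor that binds E-box sequences as a dimer with MAX, drives the genes for these steps and for polyamine and nucleotide synthesis in growing progenitors. The libraries were made from polyadenylated RNA, so ribosomal RNA itself was not measured.

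RefSeq promoter windows of 300 bases, from 250 before to 50 after a gene start, were found for 27 of the 33 genes. The E-box CACGTG, which reads alike on both strands, was present in the windows of 7 of the 27, or 25.9%, namely Hspd1, Max, Mybbp1a, Nop2, Pes1, Utp20 and Wdr43. Over all 27025 genes with a window the share was 8.09%. Windows with the ETS-type motif CCGGAAG, on either strand, were found for 7 of the 27 genes (25.9%) and for 9.93% of all genes. The windows of 3 E-box genes whose values are given in every library are shown (RefSeq, GRCm38.p6, gene strand, 5′ to 3′), with the E-box in capitals. That of Nop2 is chr6:125131633-125131932 on the plus strand, that of Max is chr12:76962199-76962498 on the minus strand, and that of Hspd1 is chr1:55088194-55088493 on the minus strand. A gene can have more than 1 window, and the 27 genes had 30. Another window of Hspd1, chr1:55087883-55088182, held the ETS-type motif and no E-box.
Nop2: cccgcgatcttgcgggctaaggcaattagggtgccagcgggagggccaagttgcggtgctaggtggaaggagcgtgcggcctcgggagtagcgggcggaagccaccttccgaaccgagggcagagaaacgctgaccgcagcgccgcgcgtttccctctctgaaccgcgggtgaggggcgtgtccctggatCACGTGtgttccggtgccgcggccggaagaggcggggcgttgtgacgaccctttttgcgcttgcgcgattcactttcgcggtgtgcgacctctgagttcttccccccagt
Max: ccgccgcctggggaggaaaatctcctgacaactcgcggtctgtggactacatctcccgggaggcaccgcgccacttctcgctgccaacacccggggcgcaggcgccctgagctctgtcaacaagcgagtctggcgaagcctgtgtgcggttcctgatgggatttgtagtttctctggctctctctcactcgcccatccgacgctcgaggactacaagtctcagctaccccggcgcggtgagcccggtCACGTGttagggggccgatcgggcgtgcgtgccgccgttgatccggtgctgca
Hspd1: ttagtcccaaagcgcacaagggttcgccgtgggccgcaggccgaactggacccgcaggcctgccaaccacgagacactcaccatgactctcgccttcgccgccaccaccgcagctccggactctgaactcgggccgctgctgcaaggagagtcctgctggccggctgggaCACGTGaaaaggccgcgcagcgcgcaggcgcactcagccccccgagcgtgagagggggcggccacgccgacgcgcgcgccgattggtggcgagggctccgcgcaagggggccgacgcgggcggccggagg
Counting the start base as 0, the E-box lay at -60 to -55 in Nop2, at -3 to 2 in Max and at -80 to -75 in Hspd1. Nop2 also held the ETS-type motif at -38 to -32, clear of its E-box. Such a match describes the sequence and does not show that MYC binds there. The median log2 fold change of the 7 genes with an E-box in the window was 0.09 and that of the 20 without was 0.12, both for knockout over control.

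The files gave 28352720 to 45655518 reads per library. Rnaseh2b, the targeted gene, had normalised counts of 2288, 2470, 1249 and 1207 in controls 1 to 4 and of 118, 128, 75.9 and 95.3 in knockouts 5 to 8, so each knockout was below each control. All 15 GMP and primary granule markers were present in every library (Kit at 8998 to 10675 and Mpo at 685130 to 826988 normalised counts) and none passed the test. Of these 15, 11 were lower in the knockouts by the fit (median log2 fold change -0.15). The unadjusted p was below 0.05 for 6 of the 15, against 13.2% of all tested genes. Elane (-0.35), Fcgr3 (-0.34) and Prtn3 (-0.28) were among the lower ones, and Cd34 (0.34) was higher. Relative to the control mean, the average log2 level of the 15 lay between -0.08 and 0.07 in controls and between -0.17 and -0.09 in knockouts, each knockout below each control. Without control 1 and knockout 8, 6 of the 15 fell and 1 rose, where 8.62% of all tested genes passed in either direction. The part of this difference in the values of the 33 genes was not tested. Control 1 and knockout 8 stood apart from the other libraries on the second principal component of all tested genes, at 34.6 and -49.7 against -14.0 to 10.9 in the other 6. Results are therefore given with and without them. In all, 234 of 16688 tested genes (1.4%) passed the main test, limma with an adjusted p below 0.05, with 199 higher (1.19%) and 35 lower (0.21%) in the knockouts. In bulk RNA, fewer cells of a type and less RNA per cell cannot be told apart.

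None of the 33 genes passed the test in either direction. The lowest adjusted p of limma was 0.106, for Myc. edgeR's quasi-likelihood test on reads recovered from the values also called none (1.44% of all genes called), and DESeq2 on those reads called 1, Myc (3.34%). With array weights, which count deviant libraries less, limma called 1, again Myc, against 6% of all genes. For 30 of the 33 the fitted level was higher in the knockouts, against 47.2% of all tested genes. The median log2 fold change of the 33 was 0.11 (1.08-fold), and that of all tested genes was -0.01. The genes were chosen with earlier results known and most varied together within the groups, so the count of 30 is a description. The unadjusted p was below 0.05 for 3 of the 33 (Myc, Polr1b and Polr1a), and it was below 0.05 for 13.2% of all tested genes. In no gene of the 33 were the 4 knockouts all above or all below the 4 controls, a pattern found in 7.41% of tested genes. The 95% interval of every one of the 33 folds stayed within 1.5-fold in both directions, from a lowest bound of 0.743 (Hspe1) to a highest of 1.47 (Myc). Within a group, the median residual SD of the 33 genes was 0.137 on the log2 scale, against 0.188 over all tested genes. The tested genes include many with low counts, and over genes with a mean of at least 50 it was 0.158. No genes of like abundance were compared.

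The same few libraries held the highest or the lowest value in many of the 33 genes. Knockout 8 had the highest value in 15 of them and control 1 in 11, while control 3 was lowest in 14 and control 4 in 10. Control 3 was also among the 2 highest libraries in 7 genes. Averaged over the 33 genes, the log2 difference from the control mean was 0.17, -0.06, -0.04 and -0.07 in controls 1 to 4. The same score was 0.08, 0.08, 0.05 and 0.22 in knockouts 5 to 8. All 4 knockouts thus lay above controls 2, 3 and 4, and control 1 lay among the knockouts, above 3 of the 4. The summed counts of the 33 genes took 0.774%, 0.647%, 0.641% and 0.626% of all normalised counts in controls 1 to 4. In knockouts 5 to 8 they took 0.705%, 0.743%, 0.72% and 0.804%.

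**Figure D1:**
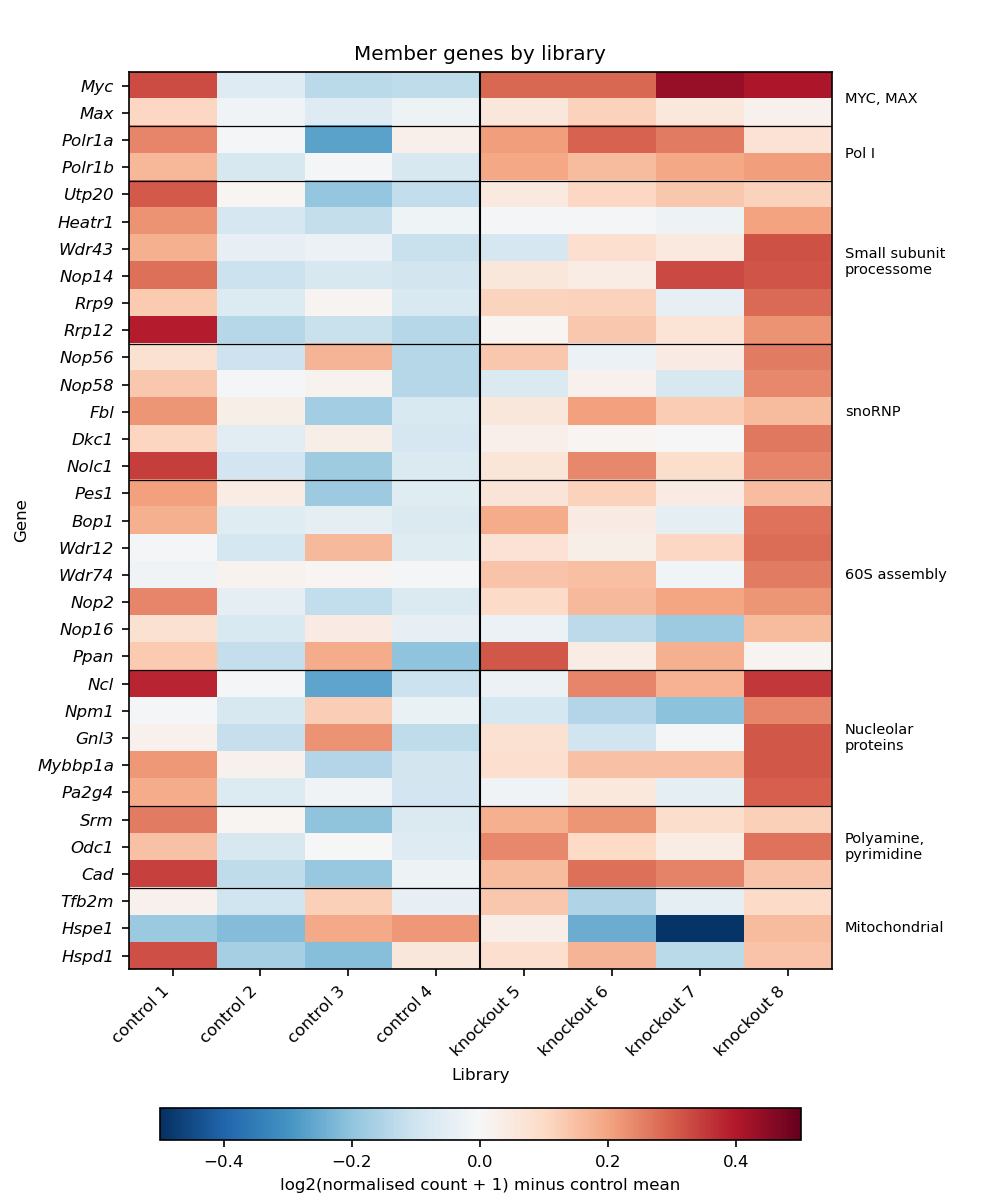
Heat map of the 33 genes (rows, grouped by role) in the 8 libraries (columns). Colour gives the difference of log2(normalised count + 1) from the control mean, with the scale ending at 0.5 in either direction. Control 1 and knockout 8 are the most widely high columns, and controls 2 to 4 are mostly below 0.

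Without control 1, limma called 2 of the 33 genes higher in the knockouts, Myc (log2 fold change 0.46, adjusted p 0.00358) and Cad (0.32, adjusted p 0.0341). The background of that fit was 371 of 16730 tested genes called (2.22%), with 1.6% of tested genes called higher. In 16 genes all 4 knockouts then lay above controls 2 to 4, against 7.56% of tested genes. These were Myc, Max, Polr1a, Polr1b, Utp20, Nop14, Rrp12, Fbl, Nolc1, Pes1, Bop1, Nop2, Mybbp1a, Srm, Odc1 and Cad, and the median log2 fold change of the 33 was 0.17. Without knockout 8 none passed (569 of all genes, 3.41%, did), the median was 0.07 and 25 of the 33 were above 0, as were 48.8% of tested genes. Npm1 was then lower in every knockout than in every control, as were 8.6% of tested genes. Without both libraries 6 passed, all higher in the knockouts: Myc, Cad, Polr1a, Nolc1, Nop2 and Polr1b, with adjusted p from 0.00147 to 0.0489. The background was then 1440 of 16710 genes (8.62%), with 3.9% of tested genes called higher in the knockouts. The groups did not overlap for 17 of the 33, the same 16 and, in the other direction, Npm1, against 28% of tested genes. In both fits without knockout 8, the 3 knockouts have sample numbers 6, 7 and 8. The controls have higher ones, from 9 with control 1 and from 10 without it. In these fits the effects of genotype and of sample order cannot be told apart.

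Myc (chr15:61985391-61990374, mm10, plus strand), the driver of the programme, had normalised counts of 9160, 6978, 6642 and 6684 in controls 1 to 4 and of 8897, 8904, 9866 and 9661 in knockouts 5 to 8. Controls 2, 3 and 4 were below every knockout, and control 1 was above knockouts 5 and 6. The means were 7366 ± 1205 and 9332 ± 505 (SD, n = 4 each), a difference of 0.35 ± 0.0965 (SE) on the log2 scale, or 1.28-fold with a 95% interval of 1.11 to 1.47. With an adjusted p of 0.106 in limma it did not pass, nor did it in edgeR (adjusted p 0.128), but it passed in DESeq2 (adjusted p 0.0344). Over all settings that used the 8 libraries, the adjusted p of Myc ran from 0.0116 with array weights to 0.318 without the intensity trend.

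MAX, which every MYC dimer needs, was less variable. Max (chr12:76937269-76962201, minus strand) had normalised counts of 4073, 3739, 3625 and 3724 in controls 1 to 4 and of 3934, 4105, 3925 and 3847 in knockouts 5 to 8. Again control 1 lay among the knockouts and controls 2 to 4 below them. The fold was 1.04 (95% interval 0.945 to 1.15, with an adjusted p 0.751 in limma). The other MYC genes were close to absent: Mycn averaged 6.67 normalised counts in controls and 1.93 in knockouts, and Mycl 30.1 and 26.7. Per kb of the authors' gene length, Myc was at 2711 in controls and 3435 in knockouts, and Mycl at 7.47 and 6.61. Mxi1, which competes with MYC for MAX, was at 2061 ± 195 in controls and 1671 ± 173 in knockouts (log2 fold change -0.30, adjusted p 0.169 in limma), and did not pass. Other genes whose proteins compete for MAX differed in sign or little: the log2 fold change was 0.25 for Mxd1, -0.03 for Mxd3, 0.02 for Mxd4 and 0.01 for Mnt, and none passed. These MYC and MAX relatives were picked after their values were seen.

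**Figure D2:**
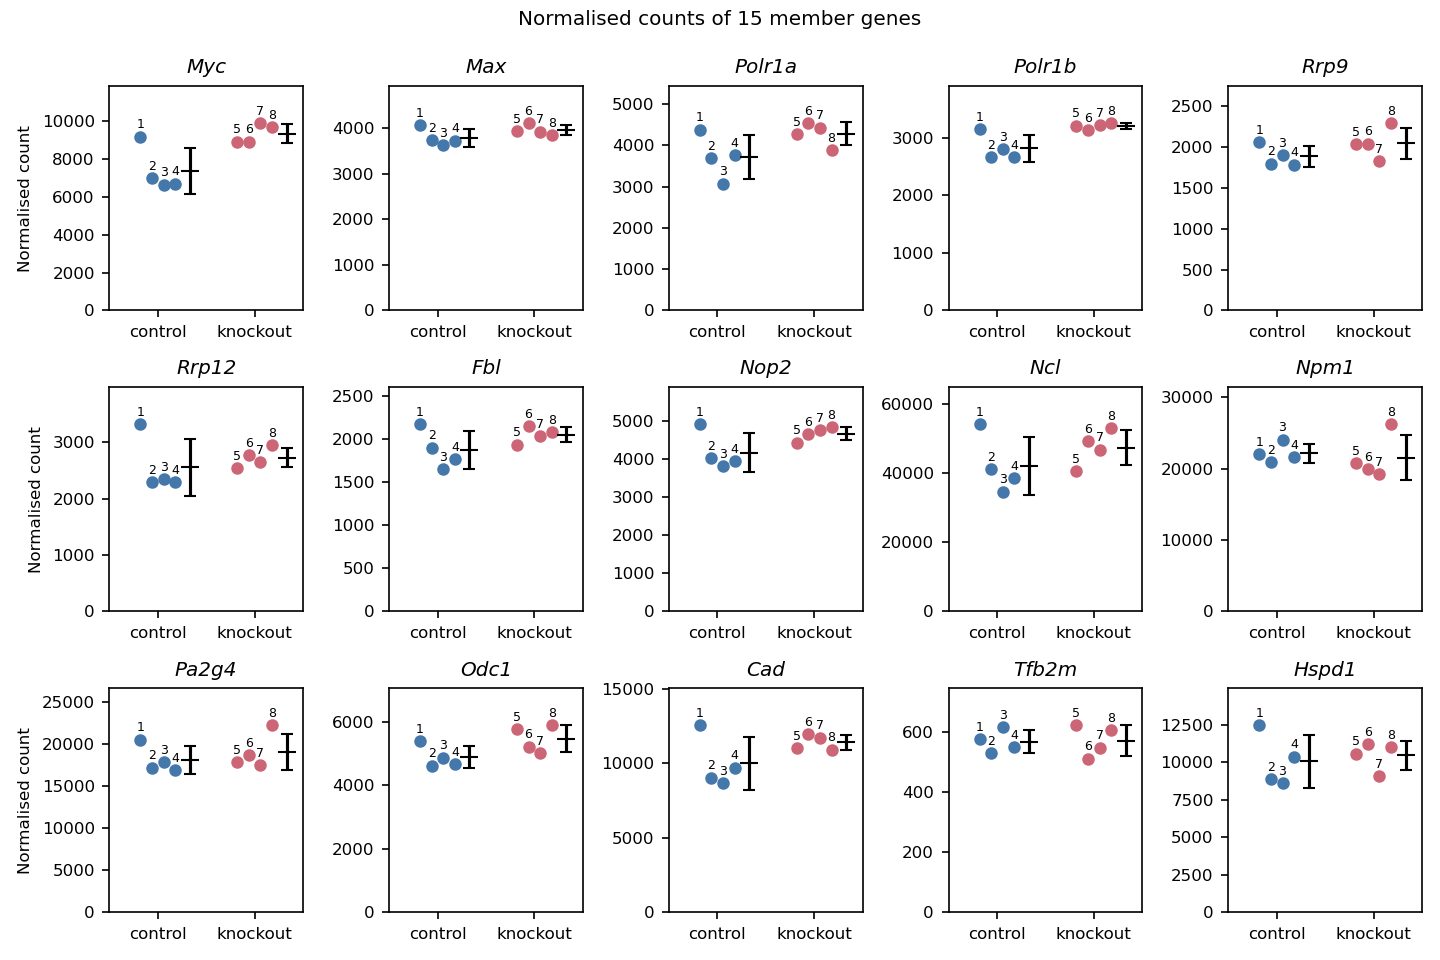
Normalised counts (y axis, from 0) of 15 of the genes in each library (points, numbered by replicate) of the control and knockout groups, with bars for mean ± SD of 4 libraries. Control 1 is the highest control for most genes, and the groups overlap in each panel.

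Pol I is represented by its 2 largest subunits, Polr1a and Polr1b, which together form the catalytic core. Polr1b (chr2:129100995-129126594) had normalised counts of 3152, 2662, 2801 and 2664 in controls 1 to 4 and of 3213, 3136, 3218 and 3252 in knockouts 5 to 8. Only control 1 reached the range of the knockouts, lying just above knockout 6, and the knockouts spanned a narrow range (3205 ± 49.0, SD, n = 4). The fold was 1.14 (95% interval 1.02 to 1.27, adjusted p 0.282 in limma). Polr1a (chr6:71909053-71984935) had normalised counts of 4381, 3688, 3074 and 3769 in controls 1 to 4 and of 4281, 4536, 4431 and 3892 in knockouts 5 to 8. Here knockout 8 was the lowest knockout, below control 1, and the fold was 1.16 (95% interval 1.00 to 1.34, adjusted p 0.376). In a list of 15 other genes of Pol I transcription none rose or fell and the median log2 fold change was 0.03. Ubtf, which opens the ribosomal RNA genes for Pol I, was at 8261 ± 1034 and 8310 ± 353 normalised counts, and Polr1d, a subunit shared with Pol III, at 3517 ± 291 and 3222 ± 354.

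Of the 6 genes of the small subunit processome, none passed and all 6 were higher in the knockouts by the fit, with folds of 1.03 to 1.14. Rrp12, a factor for export and maturation of pre-ribosomes, had normalised counts of 3315, 2290, 2339 and 2288 in controls 1 to 4 and of 2540, 2769, 2650 and 2947 in knockouts 5 to 8. Control 1 was the highest of all 8 libraries, the other 3 controls were the lowest, and the fold was 1.08 (95% interval 0.913 to 1.27). Rrp9, a protein of the U3 snoRNP, had normalised counts of 2061, 1796, 1896 and 1783 in controls 1 to 4 and of 2031, 2039, 1827 and 2289 in knockouts 5 to 8. The groups overlapped at both ends, with a fold of 1.08. Nop14, a processome protein, averaged 1951 ± 266 in controls and 2212 ± 244 in knockouts. Utp20, a large scaffold protein, averaged 3939 ± 628 and 4187 ± 108, Heatr1 (UTP10) 7298 ± 819 and 7487 ± 585, and Wdr43 (UTP5) 5292 ± 471 and 5656 ± 675. In a list of 43 other small subunit genes none rose or fell, with a median log2 fold change of 0.03. Its 2 most abundant genes were Emg1, an rRNA methyltransferase, at 5555 ± 701 and 5243 ± 656, and Bms1, a GTPase of the processome, at 4228 ± 534 and 4439 ± 237.

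None of the 5 snoRNP genes passed, and all 5 folds were above 1. Fbl, fibrillarin, the methyltransferase of box C/D snoRNPs, had normalised counts of 2173, 1901, 1653 and 1768 in controls 1 to 4 and of 1938, 2150, 2037 and 2079 in knockouts 5 to 8. Knockouts lay above controls 2 to 4 and below control 1, with a fold of 1.10 (95% interval 0.962 to 1.26). Nop56 and Nop58, its core partners, averaged 7023 ± 726 and 9356 ± 733 in controls and 7525 ± 658 and 9553 ± 1030 in knockouts, which are folds of 1.07 and 1.02. Dkc1, dyskerin, the pseudouridine synthase of box H/ACA snoRNPs, averaged 8140 ± 487 and 8588 ± 782. Nolc1, a chaperone of snoRNPs, averaged 8273 ± 1444 and 9152 ± 617, with a fold of 1.12 (95% interval 0.959 to 1.3). In the list of 17 snoRNP genes, which includes Nop56, Nop58, Fbl and Dkc1, none rose or fell and the median log2 fold change was 0.02.

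Among the 7 genes of 60S assembly, 6 had a fold above 1. Nop2 (chr6:125131909-125144753), an rRNA methyltransferase and long-known proliferation antigen, had normalised counts of 4907, 4014, 3806 and 3948 in controls 1 to 4 and of 4429, 4644, 4757 and 4829 in knockouts 5 to 8. Control 1 was above every knockout, and controls 2 to 4 were below every knockout. The fold was 1.12 (95% interval 0.993 to 1.27, adjusted p 0.407 in limma). Pes1, Bop1 and Wdr12 form the PeBoW complex, which is needed to process the 60S precursor. Pes1 averaged 3988 ± 454 in controls and 4237 ± 151 in knockouts, Bop1 4944 ± 420 and 5353 ± 526, and Wdr12 2240 ± 180 and 2435 ± 189. Their folds were 1.07, 1.08 and 1.09, and none of the 3 subunits passed. Wdr74, another 60S factor, was the most even gene among controls, at 1945 ± 22.1, with 2143 ± 165 in knockouts. Ppan averaged 3916 ± 508 and 4286 ± 416, and Nop16 was the exception at 3608 ± 179 and 3508 ± 375, a fold of 0.969. In a list of 50 other genes of 60S assembly none rose or fell and the median log2 fold change was 0.05. Its most abundant genes, the helicase Ddx21 and the ribosomal L1 domain protein Rsl1d1, were at 12510 ± 1714 and 8454 ± 515 in controls and at 13639 ± 1068 and 8344 ± 1096 in knockouts.

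**Figure D3:**
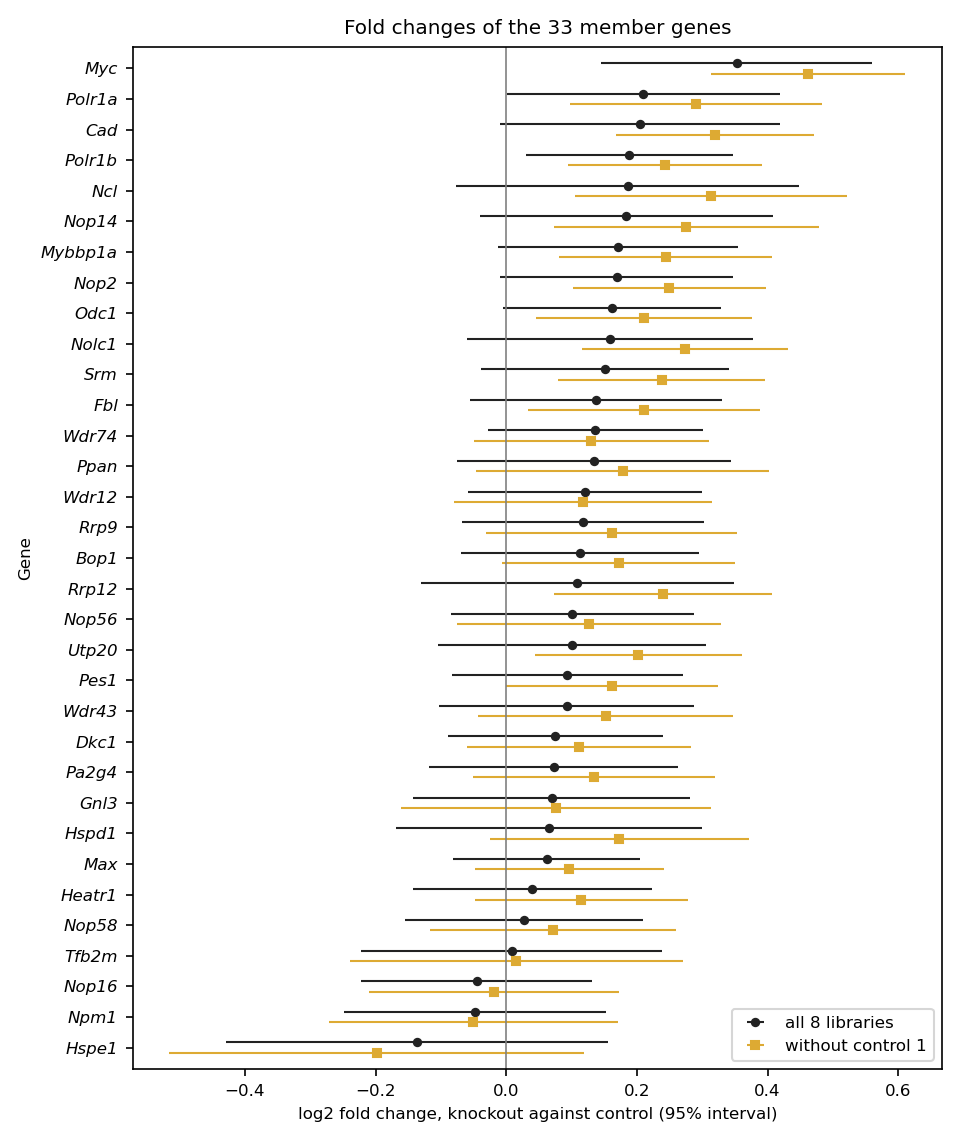
Log2 fold change of knockout over control (x axis, points) with 95% intervals (bars) for the 33 genes (rows, in order of fold change), from all 8 libraries and without control 1. With all 8 libraries 30 of the 33 points are above 0 and 3 intervals exclude 0, those of Myc, Polr1b and Polr1a.

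Among the 5 abundant nucleolar proteins and regulators none passed. Ncl varied widely among controls, and Npm1 among knockouts, through knockout 8. Ncl, nucleolin, which binds rRNA precursors and ribosomal DNA chromatin, had normalised counts of 54022, 41108, 34544 and 38420 in controls 1 to 4 and of 40591, 49137, 46733 and 52939 in knockouts 5 to 8. The highest control was 1.56 times the lowest, and the range of the controls held all 4 knockouts. The fold was 1.14 with an interval of 0.948 to 1.36. Npm1, nucleophosmin, a histone and ribosome chaperone often mutated in human myeloid leukaemia, had normalised counts of 22014, 20902, 24048 and 21582 in controls 1 to 4 and of 20806, 19960, 19202 and 26193 in knockouts 5 to 8. Knockouts 5, 6 and 7 were below every control and knockout 8 was above them, and the fold was 0.967 (95% interval 0.842 to 1.11). Pa2g4 (EBP1), a growth regulator of the nucleolus, had normalised counts of 20537, 17217, 17847 and 16884 in controls 1 to 4 and of 17858, 18730, 17527 and 22235 in knockouts 5 to 8. Control 1 and knockout 8 were the high libraries of their groups, and the fold was 1.05. Mybbp1a, a nucleolar MYB-binding protein, averaged 16180 ± 1862 and 18162 ± 1257 (1.13-fold), and Gnl3, nucleostemin, a nucleolar GTPase of stem and progenitor cells, 4656 ± 543 and 4889 ± 611. Per kb of the authors' gene length, Npm1 and Pa2g4 were the most abundant of the 33 transcripts, at 8195 and 6635 over the 8 libraries. Wdr12 and Tfb2m were the least abundant, at 196 and 203 per kb.

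Polyamine and pyrimidine synthesis is represented by 3 genes that MYC is known to activate. Odc1, ornithine decarboxylase, the first enzyme of polyamine synthesis, had normalised counts of 5397, 4622, 4878 and 4667 in controls 1 to 4 and of 5766, 5226, 5015 and 5893 in knockouts 5 to 8. Controls 2 to 4 were below every knockout and control 1 was above knockouts 6 and 7, with a fold of 1.12 (95% interval 0.997 to 1.26, adjusted p 0.392). Cad (chr5:31054780-31078479), the enzyme of the first steps of pyrimidine synthesis, had normalised counts of 12537, 9040, 8678 and 9704 in controls 1 to 4 and of 11017, 11951, 11723 and 10914 in knockouts 5 to 8. Control 1 was the highest library and controls 2 to 4 were the lowest, with a fold of 1.15 (95% interval 0.994 to 1.34, adjusted p 0.402). Srm, spermidine synthase, averaged 6576 ± 905 and 7258 ± 295 (1.11-fold). A list of 31 other genes of polyamine and nucleotide synthesis had no gene past the threshold and a median log2 fold change of -0.03. In it the purine enzymes Paics and Gart were at 13988 ± 580 and 12565 ± 1418 in controls and at 12954 ± 649 and 12495 ± 1041 in knockouts.

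Of the 3 mitochondrial genes none passed, and their folds ran from 0.910 to 1.05. Hspd1 (HSP60) and Hspe1 (HSP10) encode the chaperonin of the mitochondrial matrix and lie head to head on chromosome 1. Hspd1 had normalised counts of 12450, 8870, 8600 and 10374 in controls 1 to 4 and of 10567, 11208, 9066 and 11006 in knockouts 5 to 8, a fold of 1.05 with an interval of 0.890 to 1.23. Hspe1, at 4859 ± 781 in controls and 4443 ± 871 in knockouts, had the lowest fold of the 33, 0.910, with an interval from 0.743 up to 1.11. Tfb2m, a mitochondrial transcription factor, had normalised counts of 576, 530, 617 and 551 in controls 1 to 4 and of 623, 512, 549 and 606 in knockouts 5 to 8. The groups overlapped throughout, and the fold was 1.01. In a list of 19 other mitochondrial chaperones and transcription genes none rose or fell, with a median log2 fold change of 0.01. The chaperone Hspa9 was at 14211 ± 1646 and 14922 ± 1060, and the prohibitin Phb2 at 11271 ± 689 and 11407 ± 1216.

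Several of these genes have processed pseudogenes whose counts may include reads of the parent gene, or the reverse. Copies were counted if they had at least 95% identity over at least 300 bases and a mean of at least 10 normalised counts. The match also had to cover at least 50% of the copy, and genes that overlap the gene itself were left out. Such copies were found for 8 of the 33 genes, 17 copies in all. They held 80.2% of the joint count of gene and copies for Fbl, 61.5% for Npm1, 57.1% for Hspd1, 51.2% for Tfb2m, 47.1% for Hspe1, 41.6% for Odc1, 40.7% for Pes1 and 26.9% for Nop56. Gm5812, the copy of Fbl, averaged 7966 normalised counts over the 8 libraries, and Fbl itself 1962. The values of these 8 genes are therefore uncertain, and none of the 17 copies passed the test. With the copies added, again none of the 33 passed (1.4% of all genes did), and the median log2 fold change was 0.11. The fold of Fbl was then 1.02 in place of 1.10, and that of Tfb2m 0.925 in place of 1.01. The libraries were strand-specific, but whether the counting used strand is not stated in the labels. Expressed genes on the opposite strand share exon sequence with Bop1, Dkc1, Gnl3, Heatr1, Hspd1, Hspe1, Mybbp1a, Nop56, Pes1, Rrp9 and Wdr12.

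**Figure D4:**
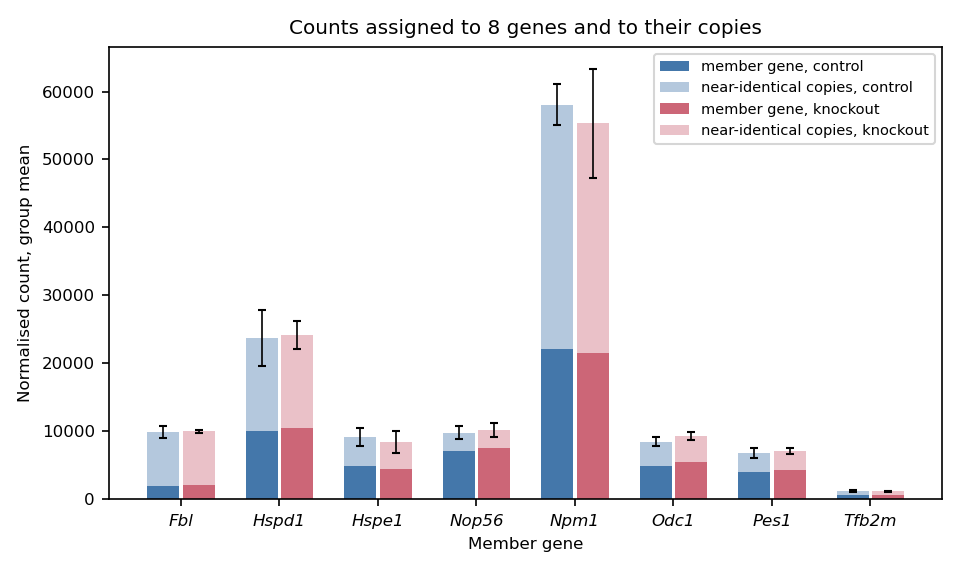
Mean normalised count (y axis, from 0) of the 8 genes with near-identical copies (x axis) in controls and knockouts, with the gene itself as the solid part of a bar and its copies stacked above. Error bars are the SD of the sum over 4 libraries, and for Fbl the copy holds most of the bar (80.2%).

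Most of the 33 genes varied together within the groups. With each group's mean taken out, the correlation between 2 of the 33 genes over the 8 libraries had a median of 0.562 over the 528 pairs, and 442 pairs were above 0. The mean over these pairs was 0.454, and over pairs of all tested genes it was 0.002. No genes of like abundance were compared, so the value of 0.002 is not a matched baseline. The points share their library, its scaling and its depth, and control 1 and knockout 8 carry much of the spread, so these values are descriptions. Heatr1, Rrp12 and Pa2g4 followed the mean of the other genes most closely (0.951, 0.933 and 0.926). Hspe1 and Ppan followed it least (-0.02 and 0.14). Myc went most closely with Nop2 (0.974), Utp20 (0.944), Nop14 (0.916) and Rrp12 (0.916), and least with Hspe1 (-0.45) and Wdr74 (-0.181). In some libraries the deviations went with gene length: the rank correlation of the deviation from the group mean with the authors' gene length, over the 33 genes, was 0.201, 0.123, -0.154 and -0.343 in controls 1 to 4. For knockouts 5 to 8 it was -0.396, 0.172, 0.434 and -0.109. With the length of 1 principal GENCODE M21 transcript per gene in its place, it was 0.508, 0.015, -0.463 and -0.068 for the controls and -0.46, 0.23, 0.482 and -0.191 for the knockouts. By transcript length, control 1 and knockout 7 thus had their higher values in the longer genes of the 33, and control 3 and knockout 5 in the shorter ones. By the authors' gene length, control 4 (-0.343) was lower than control 3 (-0.154). Over all 16688 tested genes, with the authors' gene length, it was 0.141, 0.026, -0.174 and -0.034 in the 4 controls, and in the knockouts, in the same order, -0.117, 0.107, 0.285 and -0.23. Mitochondrial transcripts took 1.03% of counts in control 3 and in knockout 5 and 0.605% to 0.863% in the other 6. The part of length and of mitochondrial share in the differences was not tested.

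Lists of neighbouring functions were also counted. In a list of 19 genes of the exosome and rRNA trimming none rose or fell, and the exonuclease Xrn2 was at 5495 ± 386 and 5495 ± 515. Exosc5, a core exosome subunit, was at 4506 ± 192 and 4695 ± 146. Among 16 other tested transcription factors of the MYC network none passed, with a median log2 fold change of -0.04. The cofactor Trrap was at 6081 ± 529 and 6300 ± 703, and Mga, a MAX partner that represses, at 3614 ± 214 and 3567 ± 199. The 12 tested cytosolic chaperonin genes had none past the threshold and a median of -0.07, with the chaperones Hsp90ab1 at 157044 ± 12919 and 156740 ± 4321 and Hspa8 at 32912 ± 3769 and 31704 ± 6664.

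In the list of 15 nucleolar and ribosomal regulators of p53, which holds 6 of the 33 genes, 1 gene rose, as did 1.19% of all tested genes. Mdm2, the ubiquitin ligase that ribosomal proteins bind when ribosome assembly is disturbed, and itself a p53 target, had normalised counts of 1987, 2068, 2291 and 2181 in controls 1 to 4. In knockouts 5 to 8 it had 3660, 2888, 3249 and 2847. Every knockout was above every control, and the difference was 0.56 ± 0.09 (SE) on the log2 scale, 1.48-fold, with an adjusted p of 0.00428 in limma. Without the intensity trend Mdm2 did not pass (adjusted p 0.0741), and over the other settings, left-out libraries included, its adjusted p ran from 7.45e-07 to 0.0238. The median log2 fold change of the list was 0.07. Control 1, the highest library for 11 of the 33 genes, had the lowest Mdm2 count of all 8.

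**Figure D5:**
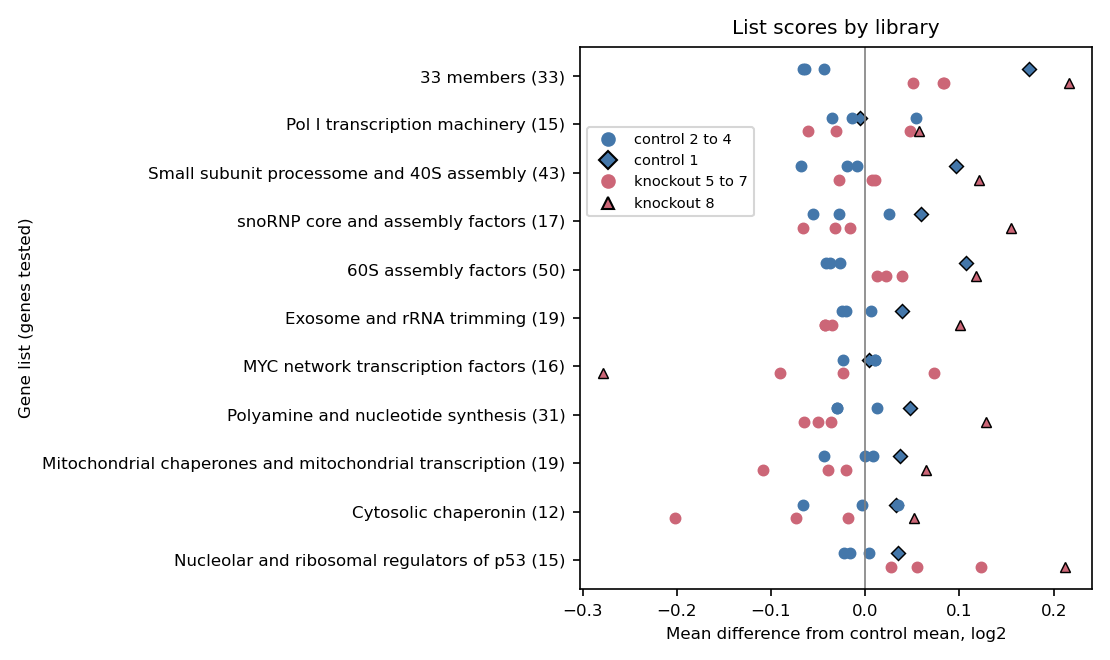
Mean difference from the control mean (x axis, log2) of the 33 genes and of 10 wider lists (rows, genes tested in brackets) in each library (points). Control 1 and knockout 8 are the 2 highest libraries for the 33 genes (0.17 and 0.22), and controls 2 to 4 lie below all 4 knockouts.

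Markers of other cell types and of handling were measured in the same libraries. For comparison with the counts below, 1.4% of all tested genes passed with all 8 libraries. That share was 2.22% without control 1, 3.41% without knockout 8 and 8.62% without both. Summed counts of 18 immediate early genes, which respond to stress and handling, ran from 48199 to 87110 in controls and from 37630 to 121598 in knockouts, with the highest control value in control 1 and the lowest value of all in knockout 8. None of the 15 that were tested passed with all 8 libraries, 3 rose without knockout 8, and 7 rose without control 1 and knockout 8. Summed counts of 15 later neutrophil genes ran from 2794, in control 1, to 9773 in controls and from 2777 to 5687 in knockouts, and 1 of 13 tested rose. Without control 1, 4 of them fell, as did 4 without knockout 8 and 6 without both. Stem cell and multipotent progenitor genes summed to 10238 to 12268 in controls and 14665 to 19135 in knockouts, with 3 of 11 tested past the threshold, all higher, and the top value in knockout 8. Dendritic cell genes summed to 5025 to 5682 in controls and 6784 to 8083 in knockouts. For stromal and endothelial genes the sums were 3846 to 4802 and 5375 to 6184. The average log2 levels of both these lists overlapped between the groups. Sums of the GMP markers also lay apart, lower in the knockouts, and those of the other lists overlapped. Of the eosinophil genes 2 of 10 tested fell, and of the mast cell and basophil genes 1 of 10. Without knockout 8 these counts were 7 and 6, and without control 1 and knockout 8 they were 8 and 7. Without control 1 alone they were 1 and 1. Of the erythroid and megakaryocyte genes 3 of 11 tested rose, of the dendritic cell genes 2 of 9, of the monocyte and macrophage genes 1 of 12 and of the stromal and endothelial genes 1 of 3. Without knockout 8, 3 monocyte and macrophage genes rose and 2 erythroid and megakaryocyte genes fell, and without both libraries 2 dendritic cell genes fell. None of the 3 lymphoid genes tested passed. The part of these differences in the values of the 33 genes was not tested.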

How the data were processed

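Polyadenylated RNA of sorted GMP from separate mice was made into strand-specific paired-end libraries, per the labels' protocols, and mice are thus the unit of replication. The submitters' processing notes list mm10 as the build and name R 3.5.1, DESeq2 1.30.1, featureCounts 2.0.1, GSNAP and FastQC. Neither the gene annotation nor the strand setting used in counting is stated there. The deposited signal holds 1 normalised count per gene and library. The authors scaled each library's gene counts by a single factor and kept 1 decimal. Of the values above 0, 99.997% were whole reads within a tolerance of 0.051 normalised counts (5 were not), and these reads gave the depth. Libraries of the same group differed by chi-square values of 13.0 to 41.6 per degree of freedom, so none was treated as a second deposit of another. Depth covers counting error only, since PCR copies are not independent molecules.

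limma 3.58.1 (R 4.3.3) was fitted, allowing the variance to follow an intensity trend, to log2(normalised count + 1). A mean of 10 or more was required, which 16688 genes met. Adjusted p-values are Benjamini-Hochberg values over all of them, with a threshold of 0.05. Folds carry the pseudocount of 1 and so understate changes of low genes. Values are mean ± SD over 4 libraries per group, control first. edgeR 4.0.16 and DESeq2 1.42.0 on the recovered reads served as alternatives. The fit was tested on simulated data. Values in every library are given for Myc, Max, the 6 genes with the lowest p, the 3 highest and the 3 lowest means and the 4 most variable in controls. From each list, genes past the threshold or, with none, the 2 most abundant were named. Near-identical copies were found with BLAST against GENCODE M21 transcripts, an alternative added after the data were seen. The genes, lists and other alternatives were chosen with earlier results of these data known.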

Additional observations from a re-analysis of the deposited data

Results flagged for a closer look

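In 6 of 66 groups of 4 libraries (33 genes in both groups), 1 library stood apart from the other 3 by Dixon's test at the 95% level, which compares its gap to the nearest library with the whole range. For a single group, chance alone does this in about 1 case in 20. The 33 genes share the same libraries and vary together, so the 66 groups are not independent. The count of 6 therefore cannot be set against that rate, and the share over all tested genes was not counted. Control 1 was the high library in 4 of the 6. Its normalised counts were 9159.7 for Myc, where the gap was 0.866 of the range, 2349.1 for Nop14 (0.94), 3314.8 for Rrp12 (0.95) and 5571.4 for Bop1 (0.899). Knockout 8 was the high library in the other two, with 8362.4 for Heatr1 (0.914) and 9757.9 for Dkc1 (0.903).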

How the results depend on the processing

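The groups share no replicate numbers, and the sample titles do not tell which mice share a litter. No paired analysis was therefore made, and litter was not modelled. Leaving out control 1 and knockout 8 together, a choice made with these data known, moved most counts. Genes of the 33 past the threshold were then 6 and those with groups apart 17. All 6 were higher in the knockouts, where 8.62% of tested genes passed in either direction. The lists then had 2 (Pol I, both higher), 7 (small subunit, 6 higher), 4 (60S, all higher), 1 (exosome, lower), 3 (MYC network, all lower), 4 (polyamine and nucleotide, 3 lower), 2 (mitochondrial, both lower) and 4 (p53 regulators, 3 higher) genes past it. Gnl3 (log2 fold change -0.004) and Tfb2m (-0.014) turned. With array weights, where 6% of all tested genes passed, 1 of the 33 passed and Tfb2m turned to -0.003. List counts were then 2 (Pol I), 2 (small subunit), 1 (60S), 2 (MYC network), 1 (mitochondrial) and 3 (p53 regulators). DESeq2 called 1 of the 33 and 2 p53 regulators, against 3.34% of all tested genes. Equal library totals gave 2 genes with groups apart and 2 p53 regulators called, quantile normalisation gave 2 apart and TMM scaling 1. The share of all tested genes with groups apart was not counted under these scalings. Under the main scaling it was 7.41%, and the counts are descriptions only. Without the intensity trend 0 p53 regulators passed, so the call of Mdm2 was lost. With copies added Tfb2m turned to -0.113. With 1 library left out at a time, 0 to 2 of the 33 passed and 0 to 16 had groups apart, both highest without control 1. List counts were 0 to 1 for Pol I, the small subunit and the MYC network, 0 to 2 for polyamine and nucleotide genes and 1 to 2 for p53 regulators. The sign turned for 8 genes, whose log2 fold changes ran from -0.014 to 0.115 (Heatr1), -0.044 to 0.072 (Nop58), -0.113 to 0.000 (Nop16), -0.146 to 0.003 (Npm1), -0.010 to 0.144 (Gnl3), -0.003 to 0.134 (Pa2g4), -0.034 to 0.060 (Tfb2m) and -0.005 to 0.173 (Hspd1). Of 264 such values 249 kept direction and call, as did 417 of 429 under the other settings. The causes were not tested. Depth sets little limit here, since the lowest mean among the 33 was 571 normalised counts (Tfb2m).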
